A study of Mus with 5 samples.

Results

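BATF exon sites are the 481 BATF peaks that the authors' annotation placed in the class Exon, out of 15810 BATF peaks on chromosomes 1 to 19, X and Y in mouse CD8 T cells kept without added retinoic acid (RA). They made up 3.04% of that list, against 58.7% for promoter, 20.1% for intron and 18.1% for intergenic peaks. The sites were taken by their class alone, whether or not BATF was also found there after RA. All samples were WT primary CD8 T cells of the spleen, labelled as naive at the start, stimulated through CD3 and CD28 in the presence of IL-2 over 24 h, then left to rest for another 24 h with 100 U/ml of IL-2. RA at 50 nM was added for the last 1 h or left out (control). Chromatin immunoprecipitation with sequencing (ChIP-seq) was done with antibodies against BATF or RARα in each condition, and normal rabbit IgG served as the background for all 4 lists. The treatment labels name different interleukins for different samples, among them IL-9 for the BATF control and IL-10 for the BATF RA sample. The protocol names IL-2 throughout, and the RA status of the IgG cells is not stated.

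BATF is a basic leucine zipper factor of the AP-1 family that activated T cells make in quantity. It pairs with JUN proteins on AP-1 elements and joins IRF4 on composite elements, and it is known for opening chromatin and switching on effector genes in CD8 T cells. RA is the ligand of RARα, a nuclear receptor that recruits activating or repressing complexes to DNA. Exons are a small part of the genome and many of them encode protein, so a peak that touches an exon may sit on coding sequence, on an untranslated region or mainly on the intron beside it.

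Each list had been called on 2 pooled alignment files per condition, and whether these came from separate samples is not stated. With 1 list for each condition the replicate spread is unknown, and no difference between conditions was tested. Shares carry Wilson 95% intervals for counting error only. Pools held between 16424269 (BATF RA) and 23110180 (BATF control) fragments, so the BATF RA pool was 71.1% as deep as its control, and what the lower depth removed cannot be told apart from what RA removed. BATF peaks lay at all 7 of 7 genes listed for CD8 T cells (Cd8a, Cd8b1, Cd3e, Cd3d, Cd3g, Cd2 and Lck, 62 peaks). Only Cd8a (16 peaks) and Cd8b1 (20 peaks) set CD8 T cells apart, since the others are general T cell genes. BATF peaks lay at 0 of 3 CD4 T cell markers (Cd4, Zbtb7b, Foxp3), at 4 of 4 B cell markers (6 peaks) and at 1 of 4 myeloid markers. These are counts of bound places and do not measure expression.

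The class Exon turned out to hold several kinds of place. A finer annotation in the same list goes by the centre of each peak. It put 187 of the 481 centres (38.9%) in an exon and 212 (44.1%) in an intron. Another 38 (7.90%) lay at a transcript end, and 44 were given other terms, 28 of them repeats. The 187 centres in exons comprised 107 in coding exons, 60 in 3′ UTRs, 15 in exons of non-coding transcripts and 5 in 5′ UTRs.

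Almost no site centred in an exon lay in a first exon. The last exon of the transcript held 94 of the 187 (50.3%, 95% CI 43.2% to 57.4%) and internal exons held 91 (48.7%), with 1 site in a first exon and 1 in a transcript of a single exon. Peaks in first exons carried another class. Over the whole list 1711 peaks were centred in an exon, and 1497 of them (87.5%) were classed as Promoter, including 1299 centred in exon 1. The exon class thus holds sites in the body and at the end of genes. Among the 212 centres in introns, 24 lay in the first intron and 35 in the last.

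The strength of exon sites was close to that of the other classes. Their median fold enrichment over IgG was 5.43 (quartiles 4.31 and 7.16), against 5.53 for promoter, 5.19 for intron and 5.31 for intergenic peaks. The median width was 562 bp, between 729 bp for promoter and 484 bp for intron peaks. Sites centred in an exon were narrower (440 bp) and weaker (fold 4.94) than exon-class sites centred in an intron (683 bp and fold 5.88). The median IgG level was 4.00 fragments in both groups. Sites in internal exons had a median fold of 4.74 and those in last exons 5.16.

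The 481 sites carried 428 gene names. A single site was found at 380 genes, 2 sites at 41 and 3 sites at 7. In RefSeq 462 sites belonged to protein-coding genes and 18 to lncRNA genes, and 45 lay over more than 1 gene, where the assignment is uncertain. A promoter-class BATF peak was annotated to the same gene for 68.6% of exon sites (95% CI 64.3% to 72.6%), against 78.7% of intron peaks. Chromosome 19 had the highest share of exon sites among its BATF peaks (4.17%), and the X chromosome had 1 exon site among 233 peaks (0.429%).

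The 10 exon sites of highest fold ranged from 23.8 to 54.5. All positions are on mm10. The strongest was at Gosr1, which encodes a Golgi SNARE protein (chr11:76733909-76736317, centred in intron 7 of 8). It held 330 fragments at its summit in the control (fold 54.5) and 248 with RA (fold 64.2). The next was at 4930558C23Rik (chr3:95384695-95386699, at a transcript end), with 305 fragments and a fold of 50.4 in the control against 222 fragments and a fold of 48.5 with RA. Both kept a very high enrichment in the shallower RA pool. The lncRNA gene 1700066B17Rik followed (chr1:39841950-39843187), with folds of 41.7 in the control and 36.3 with RA.

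T cell genes appeared among these strong sites. Malt1, the paracaspase that carries antigen receptor signals to NF-κB, had a site at its transcript end with 271 fragments in the control (fold 33.6) and 210 with RA (fold 34.9). Btla, an inhibitory receptor of lymphocytes, had a site in the 3′ UTR within exon 6 of 6 (chr16:45251792-45252284). The Btla site held 105 fragments in the control (fold 27.1) and 59 with RA (fold 19.0). It was the site of highest fold among those centred in a last exon.

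Chromatin regulators were also represented. Phc3, a Polycomb subunit, had a site centred in intron 1 of 14 (chr3:30965541-30966692) with a fold of 33.0 in the control and 27.8 with RA. Ezh1, a histone H3 lysine methyltransferase of the Polycomb group, had a site in coding exon 17 of 21 (chr11:101194509-101195341) with folds of 23.8 and 19.9. The other 3 of the 10 were at Nup214, a nuclear pore protein (32.6 in the control and 23.1 with RA), Cyp4f39, a cytochrome P450 (30.9 and 32.4), and Pdxdc1 (28.8 and 22.4). All 10 summits lay inside a BATF RA peak, and the fold was lower with RA at 7 of the 10.

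**Figure D1:**
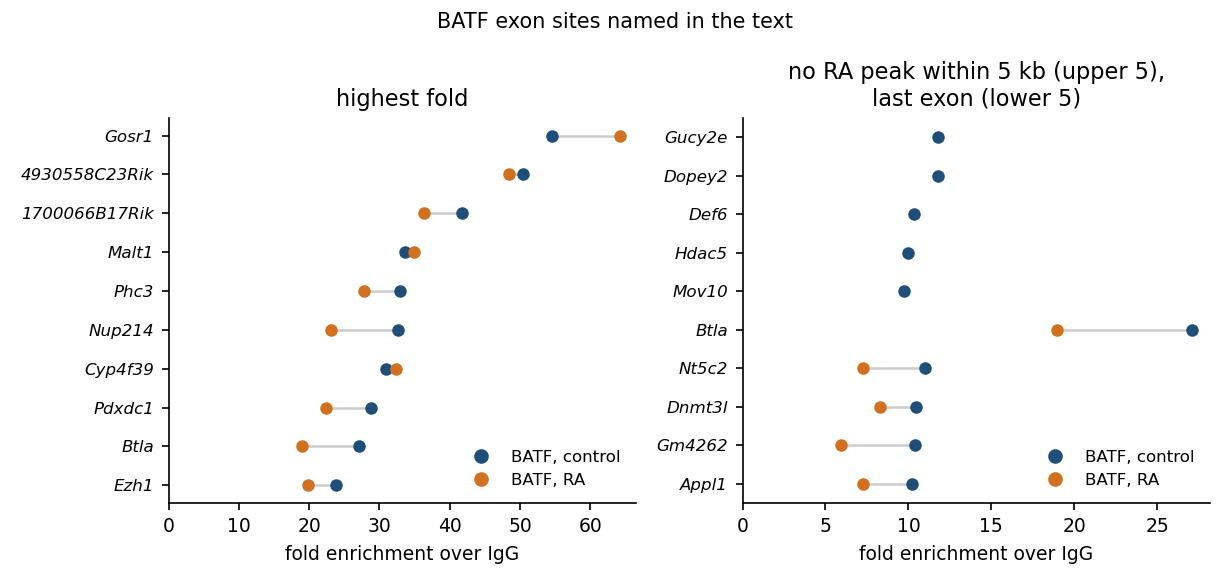
Fold enrichment of BATF over IgG at named exon sites in the control (blue) and with RA (orange, the RA peak that spans the control summit). Left, the 10 sites of highest fold, where RA is higher only at Gosr1, Malt1 and Cyp4f39. Right, the 5 strongest sites with no RA peak within 5 kb, all below a control fold of 12, and the 5 strongest sites in a last exon, all lower with RA. Ranking by control fold favours lower values with RA.

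After Btla, the strongest sites in a last exon lay between folds of 10.2 and 11.0 in the control. They were at Nt5c2, a cytosolic nucleotidase (exon 19 of 19, fold 11.0 in the control and 7.28 with RA), Dnmt3l, a DNA methyltransferase cofactor (3′ UTR in exon 5 of 5, 10.4 and 8.26), the lncRNA gene Gm4262 (exon 3 of 3, 10.4 and 5.93), and Appl1, an endosomal adaptor (3′ UTR in exon 22 of 22, 10.2 and 7.27). All 5 had an RA peak over the summit and a lower fold with RA. These sites too were ranked by control fold, which favours a lower value with RA, and its part was not tested.

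How many exon sites were found again after RA depended on the measure. Within 5 kb, a BATF RA peak was found for 314 of the 481 sites (65.3%, 95% CI 60.9% to 69.4%), against 69.9% of all BATF control peaks. An RA peak overlapped 235 sites (48.9%, 95% CI 44.4% to 53.3%), against 54.4% of all peaks. The summit itself lay inside an RA peak at 213 sites (44.3%, 95% CI 39.9% to 48.7%), against 48.5% of all peaks. Exon sites were thus slightly below the whole list, which is mostly promoter peaks, by each of the 3 measures. In the same order promoter peaks reached 74.3%, 61.2% and 53.8%, intron peaks 64.5%, 41.3% and 37.3%, and intergenic peaks 62.3%, 47.9% and 44.3%. Exon sites were therefore below promoter peaks, and close to or above intron and intergenic peaks.

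The 79 sites with an RA peak nearby but not on them mostly sat beside another bound place. In 73 of the 79 the RA peak overlapped a different control peak. Another BATF control peak of any class lay within 5 kb of 231 of the 481 exon sites (48.0%). The share was 43.5% over all BATF control peaks and 53.5% over intron peaks. In addition, 18 RA peaks were the nearest partner of more than 1 exon site. The 5 kb measure therefore counts neighbours as well as the sites themselves.

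Within the exon class the shares found again were lower for centres in exons than for centres in introns. The overlap share was 34.8% (65 of 187, 95% CI 28.3% to 41.8%) against 57.1% (121 of 212, 95% CI 50.3% to 63.6%). The share within 5 kb was 55.1% (95% CI 47.9% to 62.0%) against 71.2% (95% CI 64.8% to 76.9%). Coding exons were lowest, at 46.7% within 5 kb (50 of 107), and the 3′ UTR sites reached 61.7% (37 of 60).

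**Figure D2:**
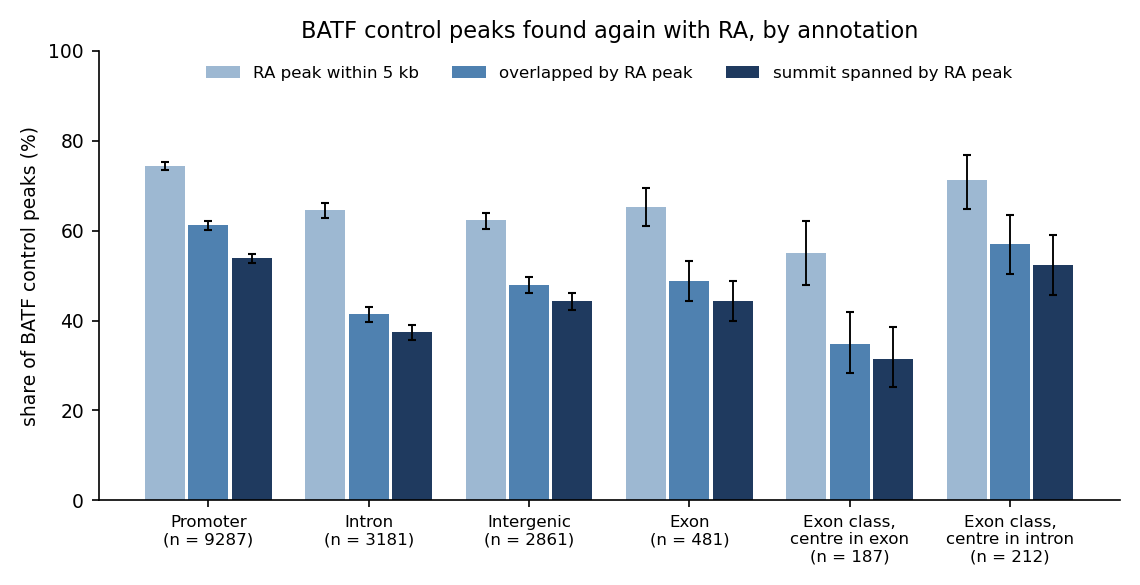
Share of BATF control peaks with a BATF RA peak within 5 kb, overlapped by an RA peak, or with their summit inside an RA peak, for each annotation class and for the exon class by its centre. Bars are percentages and lines Wilson 95% intervals for counting error. Overlap is 34.8% for sites centred in an exon and 57.1% for those centred in an intron.

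Strength and width moved with this difference, and their part in it was not tested. With a −log10 p from 5 to 10, 43.4% of exon sites (62 of 143) had an RA peak within 5 kb, and this became 62.8% (130 of 207) from 10 to 20 and 93.1% (122 of 131) at 20 and above. At 20 and above, 93.9% of the sites centred in an exon (31 of 33) and 90.9% of those centred in an intron (70 of 77) were found again. Below 20 the sites centred in an exon were lower, with 34.7% against 47.9% in the weakest bin and 57.3% against 66.7% in the middle bin, but the intervals overlapped in both bins. By overlap, an RA peak covered only 9.79% of exon sites in the weakest bin (14 of 143), then 48.3% and 92.4%. For centres in exons and introns the overlap shares were 2.78% and 14.6%, 39.0% and 51.7%, and 93.9% and 89.6%. These intervals also overlapped in each bin.

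By width, 39.7% of exon sites narrower than 400 bp had an RA peak within 5 kb, against 63.6% from 400 to 700 bp and 87.3% at 700 bp and above. Within these widths the shares for centres in exons and introns were 38.1% and 37.0%, 61.2% and 69.4%, and 83.3% and 87.5%, and the intervals overlapped in each. All 38 exon sites with a −log10 p of at least 50 had an RA peak within 5 kb.

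**Figure D3:**
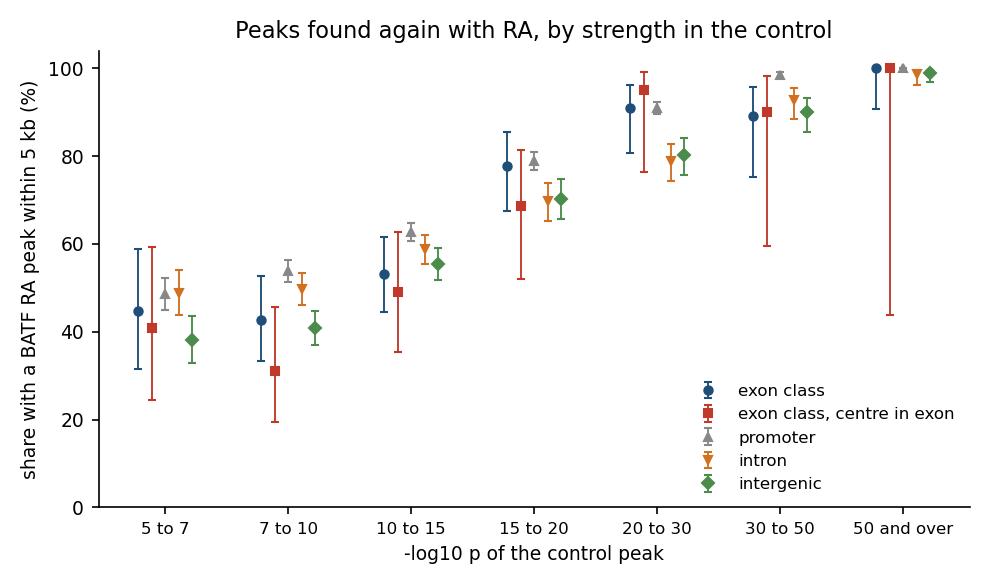
Share of BATF control peaks with a BATF RA peak within 5 kb against the −log10 p of the control peak, for the exon class, its sites centred in an exon, and the promoter, intron and intergenic classes. Points are percentages and lines Wilson 95% intervals. The share for the exon class is 44.7% from 5 to 7, 42.7% from 7 to 10, 89.2% from 30 to 50 and 100% (38 of 38) at 50 and above.

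The strongest exon sites with no RA peak within 5 kb were of moderate strength. They were at Gucy2e, a membrane guanylate cyclase (chr11:69233012-69233469, intron 3 of 18, 45 fragments, fold 11.8), and Dopey2, named Dop1b in RefSeq (chr16:93798750-93799110, coding exon 27 of 36, 45 fragments, fold 11.8). Def6, an exchange factor that acts in T cell receptor signalling, had such a site in intron 3 of 10 (chr17:28217485-28218450, 47 fragments, fold 10.3). The other 2 were at Hdac5, a class IIa histone deacetylase (43 fragments, fold 9.97), and Mov10, an RNA helicase (37 fragments, fold 9.72). Of the 167 exon sites without an RA peak within 5 kb, 16 had none within 100 kb.

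In the opposite direction, 217 of 9894 BATF RA peaks (2.19%, 95% CI 1.92% to 2.50%) were of class Exon by their own annotation, and 182 of these overlapped a control exon site. A further 13 had no control peak within 5 kb. The highest fold among the 13 was at Map7, a microtubule-associated protein (19 fragments, fold 6.32), followed by Rcn1 and Secisbp2 (15 fragments and fold 5.29 each). These genes were named after their values were seen. Where an RA peak overlapped an exon site it was narrower in 210 of 235 pairs, and its own class was Exon in 171, Intron in 61 and Intergenic in 3. Widths were not compared in this way for the other classes, so the narrowing cannot be read as a trait of exon sites.

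Fold enrichment was compared where both lists had a peak. Over the 314 pairs of nearest midpoints within 5 kb, control peaks had a median fold of 6.18 and their RA partners one of 5.32. The median ratio of RA to control was 0.870, and 210 pairs were lower with RA (66.9%, 95% CI 61.5% to 71.9%). The background over all pairs was also 66.9%.

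A nearest midpoint does not always compare the same summit, so the 213 sites whose summit lay inside an RA peak were also compared, a pairing chosen after the data had been seen. There the median was 7.16 without and 5.82 after RA, the median ratio was 0.813 (quartiles 0.693 and 0.972), and 171 sites were lower with RA (80.3%), against 77.2% of all such peaks. Centres in exons (79.7% of 59) and in introns (81.1% of 111) gave nearly the same share, and transcript ends a lower one (57.9% of 19). The fold includes an added constant of 1, which lowers it more in a shallower pool. Without the constant 69.0% of the 213 sites were lower with RA, against 68.7% of all such peaks. By summit fragments scaled to the pool's depth 74.2% were lower, against 76.5% of all such peaks.

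**Figure D4:**
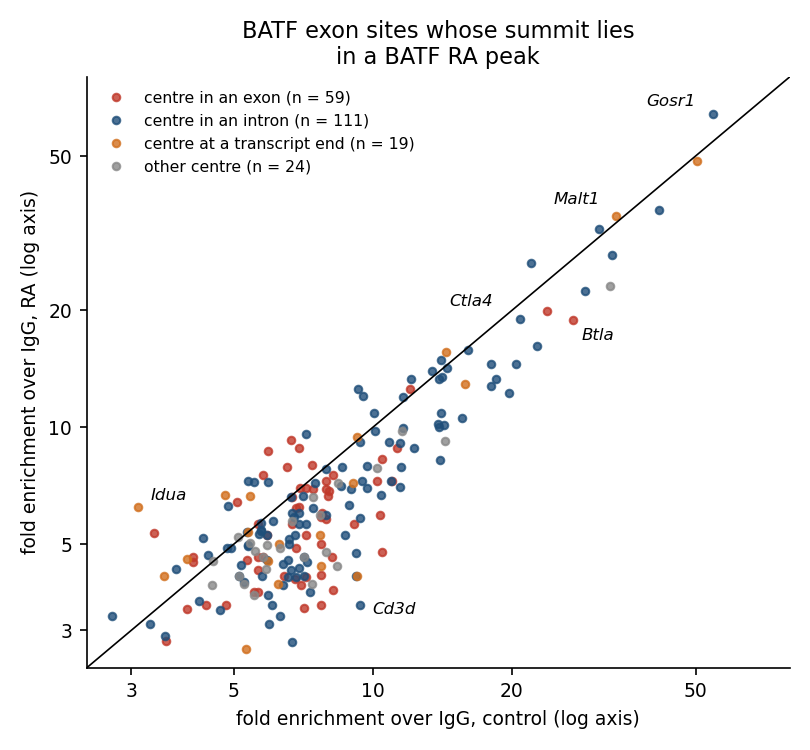
Fold enrichment over IgG in the control (horizontal) and with RA (vertical), on log axes, at the 213 exon sites whose summit lies inside a BATF RA peak, coloured by the annotation of the centre. The line marks equal folds, and 171 points lie below it. Cd3d lies farthest below and Idua farthest above.

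Most of the smallest ratios among overlapping pairs came from separate summits. By nearest midpoint, Spata13 went from a fold of 11.5 to 3.39, the lncRNA gene 3300005D01Rik from 15.8 to 5.45, Aim1 (Crybg1 in RefSeq) from 14.3 to 5.25 and Il16, which encodes a cytokine, from 11.6 to 4.50. At all 4 the nearest RA summit lay between 1019 and 1842 bp from the control summit, inside control peaks 1865 to 3935 bp wide. The RA peaks that did span the control summits had folds of 7.02, 13.0, 9.21 and 9.76.

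Cd3d, a subunit of the CD3 complex, was the exception among these 5. Its site (chr9:44985192-44987327, centred in intron 4 of 4) held 56 fragments in the control (fold 9.38) and 20 with RA (fold 3.48), with summits 37 bp apart. The ratio of 0.371 was the lowest of the 213 summit pairs. In all, 8 of the 213 ratios were under 0.5, and 2 of these 8 sites were at Akap13.

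The largest ratios were at sites of low control fold, which by itself favours a large ratio. Idua, a lysosomal hydrolase, had 21 fragments in the control (fold 3.11) and 25 with RA (fold 6.24), and Abhd15 had 50 (fold 3.36) and 39 (fold 5.35). These were the 2 summit pairs with a ratio over 1.5. The RA peaks paired with Rab37, Pced1b and Stat4 overlapped their sites but did not span the control summits. Stat4, a transducer of IL-12 signals, had a fold of 3.53 in the control and 5.43 in that RA peak.

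The genes with 3 exon sites included Kbtbd11, Akap13, Abcb9, Chd7, Nfkb1 and Padi2. Akap13, an anchoring protein of protein kinase A, had sites centred in intron 5, exon 7 and intron 7 with control folds of 5.89, 7.11 and 9.21, and the spanning RA peaks had 4.55, 3.43 and 4.13. Each of its 3 sites was thus lower with RA.

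Nfkb1, which encodes the NF-κB subunit p50 and its precursor, had control folds of 5.14, 4.09 and 5.79. The sites with 5.14 and 5.79 were overlapped by RA peaks with folds of 4.15 and 4.64. Chd7, a chromatin remodeller, had 3 overlapped sites with control folds of 6.77, 5.36 and 5.95. The RA peaks had folds of 5.27, 4.97 and 7.93, and the peak of 7.93 did not span the control summit. Kbtbd11 had sites in its last exon (2 of 2) with control folds of 7.71, 3.96 and 3.25, of which the first was overlapped by an RA peak of fold 4.18. That RA peak was also the partner of the other two, which it did not overlap.

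At Abcb9 and Padi2, too, most partners were neighbouring RA peaks. Abcb9, a lysosomal peptide transporter, had folds of 4.45, 4.37 and 6.52, and a single RA peak of fold 4.90 was the partner of all 3 while overlapping 1. Padi2, a peptidylarginine deiminase, had folds of 3.13, 3.89 and 4.09, none was overlapped, and all 3 were paired with the same RA peak of fold 8.70. At the second of these the annotation also named Gm13031.

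In 12 lists of 327 genes of T cell biology and retinoid signalling, 1353 BATF control peaks were counted over the lists and 48 of them (3.55%) were exon sites, against 3.04% in the whole list. The AP-1 and BATF family (59 peaks) and the effector molecules and cytokines (61 peaks) had 0 exon sites. Taken as 3 counts over the number of peaks, this allows shares of up to 5.08% and 4.92%. T cell receptor signalling had 10 exon sites among 190 peaks, all 10 with an RA peak within 5 kb and 8 overlapped. Over all exon sites these shares were 65.3% and 48.9%, and over all BATF control peaks 69.9% and 54.4%. Whether any list differed from these shares was not tested. They included sites at Malt1, Cd3d, Plcg1, Sla, Cd8a and Cd8b1. Plcg1, the phospholipase downstream of the T cell receptor, had folds of 6.67 without RA and 6.01 with it.

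The activation, inhibitory and cytokine receptors had 8 exon sites among 163 peaks, 5 overlapped by an RA peak. This and the count for trafficking receptors below stand beside 48.9% of all exon sites, and neither difference was tested. After Btla the strongest was at Ctla4, an inhibitory receptor, centred in intron 3 of 3 (chr1:60913106-60914238), with 168 fragments in the control (fold 20.9) and 114 with RA (fold 19.0). Cd44, an adhesion receptor of activated T cells, had a 3′ UTR site whose fold was 6.52 without and 7.91 with RA. The trafficking receptors had 6 exon sites among 88 peaks, of which only that at Itgb7, an integrin chain for gut homing, was overlapped (fold 5.93 in the control and 7.22 with RA). Ccr7, a lymph node homing receptor, had 2 sites in its last exon with control folds of 4.44 and 3.29, neither overlapped by an RA peak.

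The T cell transcription factors had 10 exon sites among 304 peaks, and 5 of the 10 were overlapped by an RA peak, against 48.9% of all exon sites. Ikzf4, a zinc finger factor of the Ikaros family, had a fold of 6.65 in the control and 4.30 with RA. Runx3, a factor of CD8 T cell identity, had 5.73 and 5.41. No RA peak lay within 5 kb of the sites at Stat5b, Lef1, Gfi1 and Ikzf3, whose control folds were 5.59, 5.43, 4.61 and 3.62. The IRF family list had 2 exon sites among 50 peaks, at Irf2bp2 (fold 4.52) and Irf2 (fold 4.06), and neither was overlapped.

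The chromatin modifiers had 4 exon sites among 105 peaks. The strongest was at Dnmt3a, a DNA methyltransferase, with 84 fragments in the control (fold 13.9) and 59 with RA (fold 13.3). Hdac5 came next. The DUSP phosphatases and early response genes had 3 exon sites among 143 peaks, at Nfkbia, the inhibitor of NF-κB (fold 7.68 in the control and 5.29 with RA), and in the 3′ UTR of Btg1, an antiproliferative gene (folds of 6.30 and 3.15 in the control).

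The cell cycle list had 1 exon site among 83 peaks, at E2f2, with folds of 14.3 and 10.2. The metabolism list had 2 among 71 peaks, at Pfkp, a phosphofructokinase (6.80 and 4.13), and Rptor, a subunit of mTORC1, where the fold of 4.61 in the control had no RA peak within 5 kb. The retinoid list had 2 exon sites among 36 peaks. Rara, the receptor that RA binds, had a site (chr11:98947604-98948277, on a repeat) with 31 fragments in the control (fold 4.52) and 23 with RA (fold 4.51). Rarg had a 3′ UTR site with a control fold of 3.62, and its RA partner was a promoter-class peak nearby that did not overlap it.

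RARα occupancy at BATF exon sites was about as frequent as over the whole BATF list. Within 5 kb, 38 of the 481 sites had a RARα control peak (7.90%, 95% CI 5.81% to 10.7%), against 7.16% of all BATF control peaks and 10.9% of intron peaks. It overlapped 18 sites (3.74%, 95% CI 2.38% to 5.84%), against 3.92% of all. RARα peaks had been called at a p of 0.001, a weaker cutoff than the 1e-05 used for BATF. The RARα fold at the 18 overlaps ranged from 2.30 to 10.1 with a median of 2.99, and the median over all RARα control peaks was 3.09.

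The 18 sites were wide, with a median of 1050 bp against 562 bp for all exon sites, and had a median BATF fold of 7.04. The strongest by BATF were at Phc3 (RARα fold 2.82), Mtmr3, a phosphoinositide phosphatase (BATF fold 18.0 in the control and 14.6 with RA, RARα fold 10.1), and Selp, encoding P-selectin (18.0, 12.8 and 8.15). Cd3d had a RARα fold of 2.52, and the lncRNA gene 5830416P10Rik had a BATF fold of 7.93 in the control and 7.27 with RA and a RARα fold of 2.35. Mtmr3 and Selp thus stood above the other 16 sites, which had RARα folds of at most 5.28.

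**Figure D5:**
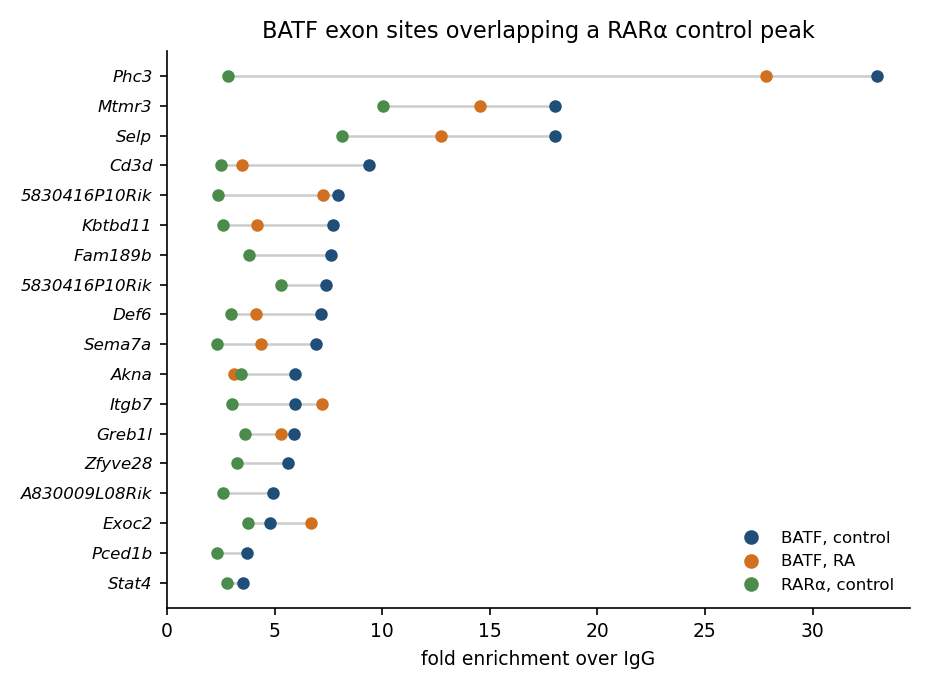
Fold enrichment over IgG at the 18 exon sites overlapping a RARα control peak, for BATF in the control (blue), BATF with RA where the RA peak spans the control summit (orange), and RARα in the control (green). RARα folds lie between 2.30 and 10.1 and are highest at Mtmr3 and Selp.

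With RA few RARα peaks were found at these sites. None of the 18 overlapping sites had a RARα RA peak within 5 kb, a count of 0 that allows a share of up to 16.7% (3 counts over 18). A BATF RA peak overlapped 16 of the 18, against 54.4% of all BATF control peaks. The 18 sites were wide, and 87.3% of all exon sites of at least 700 bp had a BATF RA peak within 5 kb. The part of width in this was not tested. Of the 38 sites within 5 kb of a RARα control peak, 36 had a BATF RA peak within the same distance, against 69.9% of all BATF control peaks. Only 1 of the 38, at Nfkb1, had a RARα RA peak within that distance. Over all 481 exon sites a RARα RA peak lay within 5 kb at 3. These were Rtkn2 (RARα fold 2.53), Tasp1, a protease (2.49), and Nfkb1 (3.38). Over the whole RARα control list 111 of 1160 peaks (9.57%) had a RARα RA peak within 5 kb. The RARα pools of both conditions had nearly equal depth, with 22655611 fragments in the control and 22475060 with RA.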

How the data were processed

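The authors aligned paired-end reads to mm10 and called peaks with MACS 2.2.7.1, at a p of 1e-05 for BATF and 0.001 for RARα, on 2 pooled files per condition against 1 IgG file of 11410673 fragments. The deposited pileup is a signal, the fragments at the summit. For the BATF control it had been scaled to a step of 0.9875 per fragment, which was undone here to give fragments. The deposited fold is a ratio that the authors' caller computed as pileup plus 1 over IgG level plus 1. The deposited p-value and q-value are on the −log10 scale, and q was not used. Class, centre term and gene names are the authors' annotation. No genome sequence was used, so sequences and motifs were not analysed here. Gene matches used a RefSeq table for GRCm38.p6 (480 of 481 sites matched).

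Distances run between peak edges, with 0 for overlap, and a partner is the RA peak of nearest midpoint within 5 kb. Shares carry Wilson 95% intervals. The upper limits printed for counts of 0 are instead 3 counts over the total. Named genes are those at the 10 strongest sites, the 5 strongest without an RA peak, the 5 largest and 5 smallest fold ratios among overlapping pairs, the 5 strongest overlapping RARα, the 5 strongest in last exons, genes with at least 3 sites and up to 3 per gene list. Some further list members were named after their values were seen. Some sites that the rule names are not reported here. The sites and gene lists were chosen with earlier results of these data known. Steps were tested on simulated data. Python 3.11.15, numpy 2.4.6, pandas 2.3.3 and matplotlib 3.10.9 were used.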

Additional observations from a re-analysis of the deposited data

How the results depend on the processing

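Peaks were called once per condition on pooled files, so depth and the calling cutoff limit what can be found, above all among weak sites in the shallower RA pool. No paired analysis was possible because each condition has a single pooled peak list. Of 27 recomputed values, 11 stayed within 1.5 times the count or median, or within the interval of the share, and 16 moved. Only the share with a lower fold with RA has a direction that could change. The counts, the medians and the other shares have none, so they could not test this. In each alternative for the lower-fold share, more pairs were lower with RA than not. The 481 sites became 284 with a fold of at least 5 and 187 when only sites centred in an exon were taken. The share found again with RA (65.3%) became 48.9% by overlap, 44.3% by an RA peak spanning the summit, 53.4% at 1 kb, 73.2% at 10 kb, 57.0% with a fold of at least 5 in both lists and 55.1% for sites centred in an exon. The share with a lower fold with RA (66.9%) became 78.7% for overlapping pairs, 80.3% for spanned summits, 58.9% with the strongest RA peak within 5 kb, 57.3% without the added constant and 60.2% for sites centred in an exon. The share near a RARα control peak (7.90%) became 3.74% by overlap, 4.78% at 1 kb and 4.37% with RARα peaks of p at most 1e-05. Sites centred in an exon and spanned summits were alternatives chosen after seeing the data. The AP-1 motif share was not run, since no genome sequence was used here.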
